A study of Mus musculus with 18 samples.

Results

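Messenger RNA levels of 10 genes of the NRF2 and thioredoxin antioxidant systems were described in the livers of 18 male ICR mice, out of 19057 gene lines in the table of the series. The genes were Nfe2l2, Keap1, Nqo1, Hmox1, Gclc, Gclm, Srxn1, Txn1, Txnrd1 and Txnip, each matched by its symbol on 1 line. They were chosen by name with values of these livers in view, so that their levels and differences are given as a description, without a test. All 10 passed the filter on low values (at least 1 RPKM, a read density scaled to gene length and library size, in at least 3 livers). The mice were 10 weeks old and fell into 6 groups of 3 livers. Con mice were on the regular diet, and AOS mice, whose labels name no other diet and which are taken here as on the regular diet, were given alginate oligosaccharide (AOS), a short sugar chain made from seaweed, at 10 mg/kg. HFD mice were on a high-fat diet, and HFD+AOS mice had this diet together with AOS at the same dose. The study's methods do not describe how long the AOS and HFD+AOS mice were dosed. Con-FMT and A10-FMT mice were on the high-fat diet and received gut microbiota by mouth, from control donors or from donors dosed with AOS at 10 mg/kg. The microbiota of the donors was pooled for each kind of donor, so that the recipients do not stand for separate donors. The study asked whether microbiota shaped by AOS alters the effects of the high-fat diet, in the liver among other organs.

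NRF2, the product of Nfe2l2, is a transcription factor that is bound and marked for destruction by KEAP1 under resting conditions. When oxidants or electrophiles modify KEAP1, NRF2 accumulates, pairs with a small MAF protein and binds antioxidant response elements near genes for glutathione synthesis, quinone reduction, haem breakdown and the thioredoxin cycle. BACH1 competes for the same elements and represses many of these genes. In hepatocytes this system serves the handling of lipid peroxides and xenobiotics. NRF2 activity is set largely by protein stability, which messenger RNA does not show.

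The table held a value for each gene and liver, with a summed RPKM of 692303 to 806937 and 14512 to 14982 genes above 0 in a liver. Read numbers were not given. The step of RPKM that a single read makes was estimated on 161 genes with few reads, and gave a depth of about 12640000 reads (quartiles over genes 9250000 to 14110000). Mean step ratios of the livers were 0.984 to 1.02. Only values near a step common to the livers were kept, so these ratios cannot show that depth was equal. With this depth applied to every liver, the value of Nqo1 in a liver rested on about 18 to 56 reads, that of Hmox1 on 228 to 354, and that of Gclm on 4981 to 7187. Hepatocyte markers summed to 36518 to 60400.1 RPKM, so that the tissue matched its label. The third Con liver and the third AOS liver lay between the other livers of their group for 97.8% of 184 genes and 97.5% of 159 genes that differed between those, close to a weighted mean of the 2. The spread of these groups may therefore rest on fewer than 3 independent livers, and values without these livers are given where they moved a call.

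Promoter sequence was looked at because NRF2 and BACH1 act through a short element. In RefSeq (build GRCm38.p6), 8 of the 10 genes had a promoter entry, reaching from 250 bases before to 50 bases after the start, with 3 entries for Txnrd1. Gclc and Hmox1 had none. The core of the antioxidant response element, TGACNNNGC on either strand, was found in entries of Nfe2l2, Gclm, Srxn1 and Txnrd1. These are 4 of 8 genes, which have 10 entries among them. By entry rather than by gene, the core was found in 12.4% of all 32851 promoter entries. The sites follow with 10 bases on each side, on the strand of the gene and with the core in capitals. They are shown because NRF2, the MAF proteins and BACH1 are known to read this core, and whether they read these sites was not tested. Txnrd1 is given at the second of its 3 starts. A match of letters is not a bound site. Other forms of the core, and sites outside these entries, were not looked for, so a gene without a match may still have an element.
Nfe2l2 (chr2:75704895-75704903, minus strand, first base 240 bases before the start): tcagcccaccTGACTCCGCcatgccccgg
Gclm (chr3:122245423-122245431, plus strand, 134 bases before the start): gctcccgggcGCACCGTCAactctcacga
Txnrd1 (chr10:82859114-82859122, plus strand, 92 bases before the start): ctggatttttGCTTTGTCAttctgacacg
Srxn1 (chr2:152105552-152105560, plus strand, base 29 of the transcript): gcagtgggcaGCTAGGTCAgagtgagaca

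Txnip, whose group means were the furthest apart among the 10 genes, held another kind of element. Its promoter has a pair of CACGNG boxes with 5 bases between them, the arrangement of the carbohydrate response element that the glucose-sensing factors ChREBP and MondoA are known to bind. Such a pair was found on either strand in 16 of the 32851 entries (0.0487%), and in no other of the 8 genes. The 250 bases before the start of Txnip are shown with the pair in capitals, beginning 85 bases before the start.
Txnip (chr3:96557707-96557956, plus strand): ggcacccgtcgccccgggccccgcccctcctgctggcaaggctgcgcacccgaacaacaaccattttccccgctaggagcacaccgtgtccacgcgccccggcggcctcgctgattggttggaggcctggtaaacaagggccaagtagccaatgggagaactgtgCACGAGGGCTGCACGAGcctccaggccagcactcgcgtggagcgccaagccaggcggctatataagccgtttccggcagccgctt

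The 10 genes spanned a wide range of levels. As the mean over 18 livers, on the RPKM scale, Txn1 (111 RPKM), Gclc (87.4) and Gclm (85.6) were the most abundant. Txnrd1 (31.4) and Nfe2l2 (29.1) followed, then Txnip (15.5), Keap1 (15.2), Hmox1 (14.7) and Srxn1 (9.94), with Nqo1 at 1.88. Liver held little messenger RNA of Nqo1, which is often used as a reporter of NRF2 activity. The spread between group means, taken as the SD of log2(RPKM + 1), lay at the 95.7th percentile of all 10507 genes tested for Txnip and at the 0.752nd percentile for Keap1. The other 8 genes lay from the 33.9th percentile (Txnrd1) to the 87.1st (Txn1). Within groups, Nqo1 (92.4th percentile), Txnip (90.8th) and Gclc (88.4th) were the most variable. Of 5 steps between neighbours in the order of group means, none exceeded the larger SD of the 2 groups for Keap1, Nqo1, Txn1, Txnrd1 and Txnip, 1 did for Hmox1, Gclc, Gclm and Srxn1, and 2 did for Nfe2l2.

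**Figure D1:**
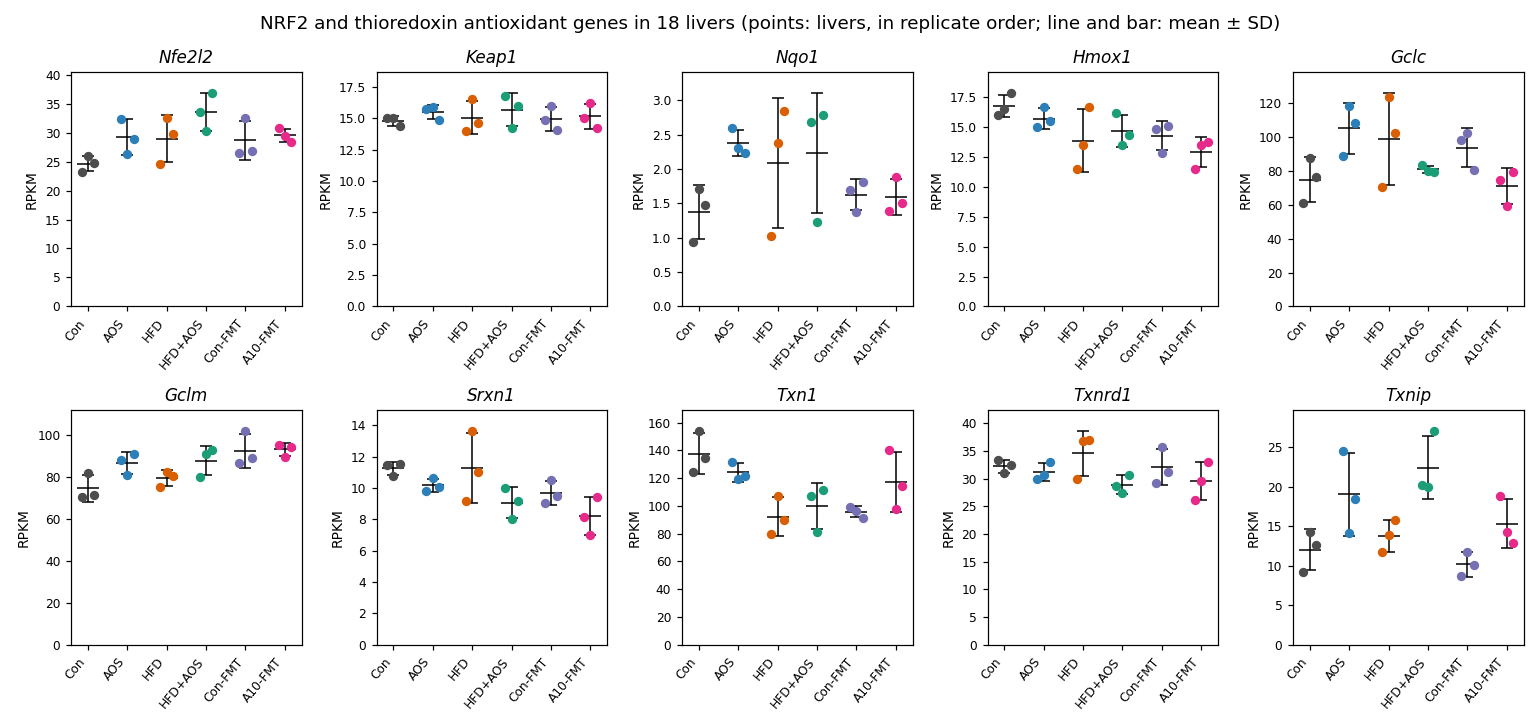
RPKM of the 10 genes in each liver (points, in replicate order), with the mean (line) and SD (bar) of each group of 3. Txn1 was lower in all HFD livers than in all Con livers, Txnip was highest in HFD+AOS, and Keap1 stayed between 14.02 and 16.81 RPKM.

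The regulators came first. Nfe2l2 lies on chromosome 2 (75675513 to 75704641, minus strand; GRCm38, GENCODE M21, as for all gene positions here). It was at 23.26, 25.89 and 24.8 RPKM in Con livers and at 32.41, 26.27 and 28.9 in AOS livers. On the high-fat diet it was at 24.53, 32.51 and 29.79 in HFD and at 33.62, 30.29 and 36.79 in HFD+AOS. The 3 AOS livers lay above the 3 Con livers, although the lowest AOS liver exceeded the highest Con liver by little, and HFD+AOS overlapped HFD. Means ran from 24.65 ± 1.32 RPKM (SD, n = 3) in Con to 33.6 ± 3.25 in HFD+AOS, a ratio of 1.36. The other means were 28.65 ± 3.37 in Con-FMT, 28.9 ± 4.06 in HFD, 29.2 ± 3.08 in AOS and 29.6 ± 1.14 in A10-FMT. On the log2(RPKM + 1) scale, on which all differences here are given, Nfe2l2 was 0.23 higher in AOS than in Con (SE 0.11, 95% interval -0.00 to 0.47) and 0.21 higher in HFD+AOS than in HFD (SE 0.11, -0.02 to 0.45), the latter 0.10 without HFD replicate 1. It was 0.22 higher in HFD than in Con (SE 0.11, -0.02 to 0.45; 0.13 when HFD replicate 2 was left out, 0.33 when HFD replicate 1 was), and 0.05 higher in A10-FMT than in Con-FMT (SE 0.11, -0.18 to 0.28).

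Keap1, on chromosome 9 (21229730 to 21239361, minus strand), was the steadiest of the 10 genes. Its value in a single liver went from 14.02 RPKM (HFD replicate 1) to 16.81 (HFD+AOS replicate 1), a ratio of 1.2, and group means went from 14.8 to 15.7 RPKM. No group stood apart from another, and the ratio of the highest to the lowest group mean was 1.06. All of its intervals in the 6 comparisons lay between -0.18 and 0.23. The messenger RNA of the sensor KEAP1 varied less over the livers than that of NRF2, both within and between groups.

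Glutathione synthesis is represented by the 2 subunits of glutamate-cysteine ligase, its rate-limiting enzyme. Gclc, the catalytic subunit (chromosome 9, 77754535 to 77794485, plus strand), was at 61.15, 87.39 and 76.08 RPKM in Con and at 88.84, 118.4 and 108.01 in AOS. In HFD it was at 70.2, 123.8 and 102.5, and in HFD+AOS at 83.2, 79.88 and 79.33. With AOS on the regular diet all livers lay above those without it. On the high-fat diet the HFD+AOS livers lay within the wide range of the HFD livers. The difference was 0.49 for AOS against Con (SE 0.18, 0.10 to 0.88) and -0.25 for HFD+AOS against HFD (SE 0.18, -0.64 to 0.14). The difference between these AOS effects was -0.74 (SE 0.26, -1.29 to -0.19), and went from -0.96 without HFD replicate 1, whose 70.2 RPKM was far from the other HFD livers, to -0.56 without HFD replicate 2. Without these same livers the difference on the high-fat diet was -0.47 and -0.07. In recipients, Gclc was at 98.01, 102.31 and 80.49 in Con-FMT and at 74.82, 59.11 and 79.25 in A10-FMT, so that these groups did not overlap (difference -0.40, SE 0.18, -0.78 to -0.01). Against HFD, A10-FMT was at -0.44 (SE 0.18, -0.83 to -0.06), -0.67 when HFD replicate 1 was left out and -0.26 when HFD replicate 2 was.

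Gclm, the modifier subunit (chromosome 3, 122245557 to 122270732, plus strand), followed another order. It was at 70.5, 81.96 and 71.48 RPKM in Con, at 87.9, 80.73 and 90.95 in AOS, and at 75.15, 82.55 and 80.43 in HFD. HFD+AOS livers had 79.88, 90.79 and 92.72 RPKM, Con-FMT livers 86.46, 101.72 and 88.92, and A10-FMT livers 95.24, 89.72 and 94.43. All livers of both recipient groups lay above all HFD livers. Gclm was 0.21 higher in Con-FMT than in HFD (SE 0.09, 0.03 to 0.40) and 0.23 higher in A10-FMT than in HFD (SE 0.09, 0.04 to 0.41), and both differences use the same 3 HFD livers. Between the recipients it differed by 0.01 (SE 0.09, -0.17 to 0.20). In A10-FMT livers, then, the subunits of 1 enzyme stood at opposite ends of their orders, with the lowest group mean of the 6 for Gclc (71.1 ± 10.6 RPKM) and the highest for Gclm (93.1 ± 2.98). Both places were near ties, with Gclc at 74.9 ± 13.2 RPKM in Con and Gclm at 92.4 ± 8.19 in Con-FMT.

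Nqo1 encodes a quinone reductase (chromosome 8, 107388225 to 107403206, minus strand). It was at 0.94, 1.71 and 1.48 RPKM in Con and at 2.59, 2.31 and 2.23 in AOS, without overlap (difference 0.52, SE 0.22, 0.06 to 0.98). In HFD it was at 1.03, 2.38 and 2.85, and in HFD+AOS at 2.68, 1.23 and 2.79, so that both groups spanned most of the range of the gene. In the recipients Nqo1 stayed between 1.38 and 1.89. On the log2(RPKM + 1) scale such low values are compressed, and the AOS difference was 0.78 with a pseudocount of 0.1. It was 0.38 without Con replicate 1 and 0.45 with library medians set equal.

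Hmox1, haem oxygenase 1 (chromosome 8, 75093621 to 75100589, plus strand), breaks down haem and is known for high expression in macrophages. It was at 16.04, 16.49 and 17.84 RPKM in Con, at 14.97, 16.66 and 15.48 in AOS, at 11.5, 13.49 and 16.65 in HFD and at 16.17, 13.51 and 14.36 in HFD+AOS. Con-FMT livers had 14.88, 12.87 and 15.08 RPKM, and A10-FMT livers 11.47, 13.53 and 13.74. The high-fat groups lay mostly below Con, and only HFD and HFD+AOS had a liver above the lowest Con liver. The difference of HFD against Con was -0.27 (SE 0.11, -0.51 to -0.03), and -0.15 without HFD replicate 1. Markers of Kupffer cells and macrophages varied with Hmox1 over the livers, though the highest summed level was in an AOS liver and the highest Hmox1 in a Con liver. Their summed level, over 10 of 10 markers, none of them at 0 in any liver, was 130 to 197 RPKM in Con, 161 to 224 in AOS, 91.7 to 211 in HFD, 135 to 154 in HFD+AOS, 98.9 to 127 in Con-FMT and 102 to 127 in A10-FMT. Each of the 10 markers correlated with Hmox1 over the 18 livers, with r from 0.513 (Adgre1) to 0.802 (Clec4f), and Clec4f was 1 of the 2 genes of all with a mean RPKM of at least 5 whose pattern was most like that of Hmox1. The share of all genes with such r was not counted. Within HFD, AOS, HFD+AOS and Con-FMT, the liver of highest Hmox1 was that of the highest marker sum, in HFD+AOS by 153.5 against 153.48 RPKM. In Con it was not, and in A10-FMT the highest sum (127 RPKM) belonged to the liver of lowest Hmox1 (11.47). The part of macrophage number in the Hmox1 values was not tested, and in whole liver fewer cells of a type and less RNA per cell cannot be told apart.

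**Figure D2:**
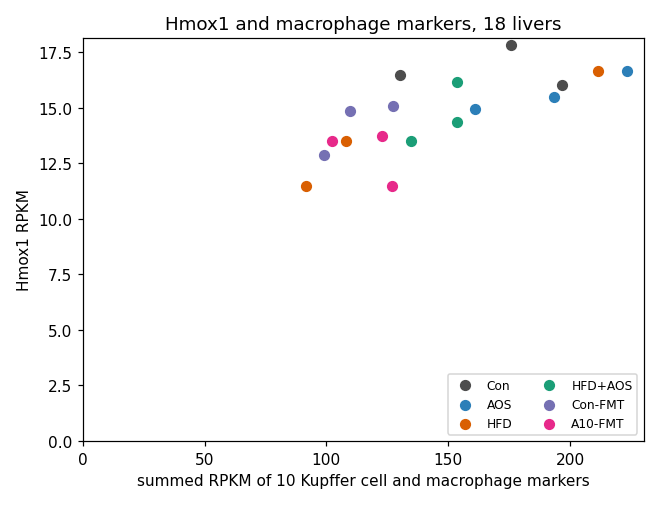
Hmox1 RPKM (vertical) against the summed RPKM of 10 Kupffer cell and macrophage markers (horizontal) in 18 livers, coloured by group. The livers with the lowest Hmox1, at 11.47 and 11.5 RPKM, had marker sums of 127 and 91.7, and the 8 livers with the highest sums, 153 or more, had Hmox1 of at least 14.36.

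The thioredoxin cycle passes electrons from NADPH through thioredoxin reductase to thioredoxin, which reduces peroxiredoxins and other proteins. Txn1, cytosolic thioredoxin (chromosome 4, 57943373 to 57956411, minus strand), was at 124.49, 153.71 and 134.43 RPKM in Con and at 79.76, 107.09 and 90.05 in HFD. All HFD livers were below all Con livers, and the means of 138 ± 14.9 and 92.3 ± 13.8 RPKM were the highest and the lowest of the 6, with a ratio of 1.49. The difference was -0.58 (SE 0.14, -0.88 to -0.27), the largest of any of the 10 genes in this comparison. Over the alternatives of processing and of livers left out, it went from -0.69 without HFD replicate 2 to -0.48 without HFD replicate 1. The AOS livers had 131.77, 119.13 and 121.57 RPKM. On the high-fat diet with AOS, Txn1 was at 107.11, 80.93 and 111.44, and in Con-FMT at 99.51, 96.59 and 91.6, both around the HFD values. A10-FMT livers had 140.16, 97.51 and 114.36 RPKM, of which 2 were above every HFD liver, and their difference from HFD was 0.34 (SE 0.14, 0.03 to 0.64). Without A10-FMT replicate 1 it was 0.20.

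Txnrd1, cytosolic thioredoxin reductase (chromosome 10, 82833951 to 82897712, plus strand), went from 26.2 to 36.96 RPKM over the livers. Its lowest group mean was that of HFD+AOS (28.9 ± 1.66 RPKM) and its highest that of HFD (34.6 ± 3.98). The HFD livers had 29.96, 36.75 and 36.96 RPKM and the HFD+AOS livers 28.65, 27.44 and 30.72, with overlap through HFD replicate 1 alone (difference -0.24, SE 0.10, -0.45 to -0.03). Against HFD, A10-FMT was at -0.22 (SE 0.10, -0.43 to -0.01), and at -0.13 without A10-FMT replicate 1.

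Srxn1 encodes sulfiredoxin, which restores overoxidized peroxiredoxins (chromosome 2, 152105516 to 152111376, plus strand). Its values were 11.45, 10.79 and 11.52 RPKM in Con, 9.8, 10.62 and 10.06 in AOS, 9.17, 13.61 and 10.99 in HFD and 10, 8.04 and 9.14 in HFD+AOS. The AOS livers lay just below the Con livers (difference -0.14, SE 0.12, -0.39 to 0.12). Con-FMT livers had 9.03, 10.49 and 9.52 RPKM, and A10-FMT livers 8.15, 7 and 9.45. The lowest group mean was that of A10-FMT (8.20 ± 1.23), at -0.41 from HFD (SE 0.12, -0.66 to -0.15), with overlap through HFD replicate 1. Without that liver the difference was -0.53. Srxn1 and Txnrd1 shared their highest group, HFD (level with Con for Srxn1), and their 2 lowest, HFD+AOS and A10-FMT, and correlated over the 18 livers with r = 0.733.

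Txnip encodes thioredoxin-interacting protein, which binds reduced thioredoxin and restrains glucose uptake, and whose gene is known to respond to glucose (chromosome 3, 96557957 to 96561883, plus strand). It was at 9.22, 14.26 and 12.61 RPKM in Con and at 24.55, 14.15 and 18.4 in AOS. On the high-fat diet it was at 11.76, 13.83 and 15.75 in HFD and at 20.21, 20.02 and 27.01 in HFD+AOS. Every HFD+AOS liver was above every HFD liver, while AOS and Con overlapped by the narrowest margin, at 14.15 and 14.26 RPKM. Con-FMT livers had 8.67, 11.77 and 10.05 RPKM, and A10-FMT livers 18.88, 14.33 and 12.83, again without overlap. Txnip was 0.61 higher in AOS than in Con (SE 0.20, 0.19 to 1.03), 0.66 higher in HFD+AOS than in HFD (SE 0.20, 0.24 to 1.08) and 0.54 higher in A10-FMT than in Con-FMT (SE 0.20, 0.12 to 0.96). These 3 differences, each of AOS or of microbiota from AOS-dosed donors against its own control, share no liver. They stayed above 0 in all 12 alternatives of each, between 0.39 and 0.79. Txnip was chosen with these values in view, and the 3 differences share 1 estimate of the spread, so that their likeness is a description. Against HFD itself, A10-FMT was at 0.14 (SE 0.20, -0.28 to 0.56) and Con-FMT at -0.41 (SE 0.20, -0.83 to 0.02), and HFD was at 0.19 from Con (SE 0.20, -0.23 to 0.61). The difference between the AOS effects on the diets was 0.05 (SE 0.28, -0.54 to 0.65).

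**Figure D3:**
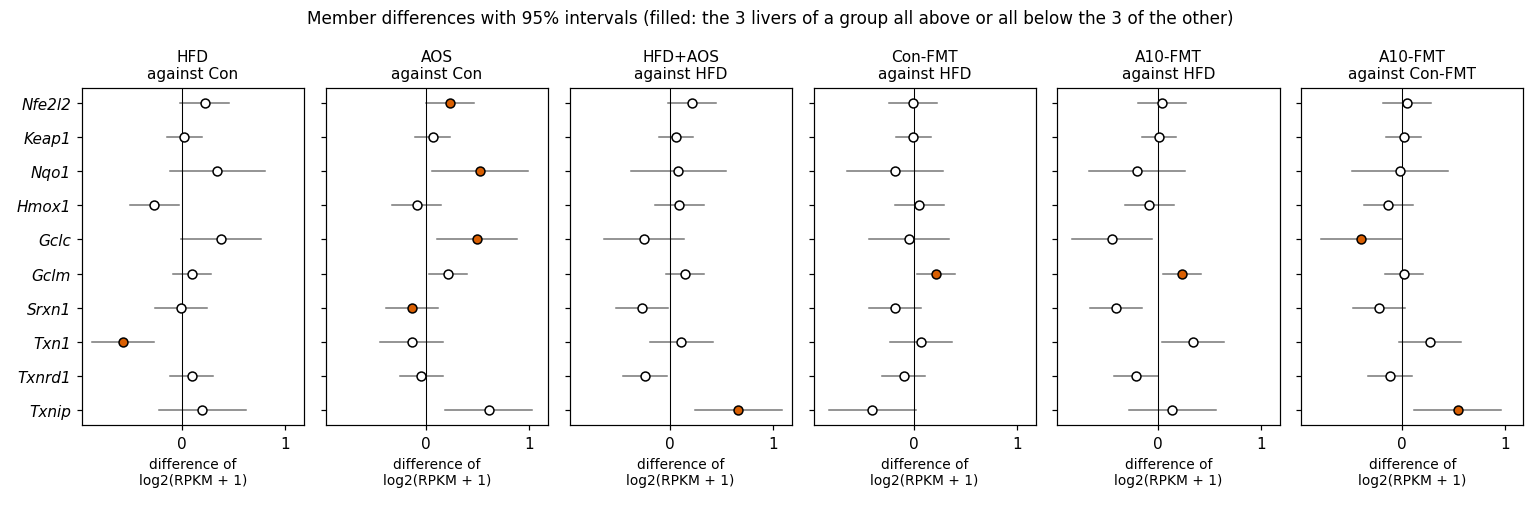
Differences of log2(RPKM + 1) of the 10 genes in 6 comparisons, first group minus second (points), with 95% intervals (lines). Filled points mark genes whose 3 livers of a group all lay above or all below those of the other, as for Txn1 in HFD against Con and Txnip in HFD+AOS against HFD and A10-FMT against Con-FMT.

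None of the 10 genes reached an adjusted p under 0.05 (limma, Benjamini-Hochberg over all 10507 genes tested) in any of the 6 comparisons or in the difference of the AOS effect between diets. As these genes were chosen with their values known, nothing is read from this count or from those that follow. In HFD against Con, 0.295% of all genes were called higher and 0.0857% lower. At an unadjusted p under 0.05 were 2 of the 10 genes and 15.4% of all genes. Groups did not overlap for 1 gene (Txn1), against 18.5% of all genes. Of the 10, 7 lay above 0 and 3 below, with a median of 0.09, beside 0.05 for all genes. In A10-FMT against HFD, 2.62% of all genes were called higher and 3.98% lower, and 5 of the 10 genes were at an unadjusted p under 0.05, against 24.5% of all genes. 1 gene (Gclm) did not overlap, against 23.4% of all genes, and the median was -0.04 beside -0.03. In Con-FMT against HFD, 0.0% of all genes were called higher and 0.00952% lower, and 1 of the 10 genes was at an unadjusted p under 0.05, against 6.63% of all genes. Again only Gclm did not overlap, against 10.1% of all, and the median was -0.03 beside -0.00.

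In A10-FMT against Con-FMT, 0.457% of all genes were called higher and 1.23% lower. At an unadjusted p under 0.05 were 2 of the 10 genes and 16.4% of all genes, and Txnip and Gclc did not overlap (18.3% of all genes). The median was -0.00 beside -0.03. In AOS against Con, 0.0952% of all genes were called higher and 0.0381% lower, with 4 of the 10 genes at an unadjusted p under 0.05, against 15.5% of all genes. Here Nfe2l2, Nqo1 and Gclc were higher and Srxn1 lower without overlap, beside 24.7% of all genes, and the median was 0.14 beside 0.07. In HFD+AOS against HFD, 4.17% of all genes were called higher and 4.58% lower, with 3 of the 10 genes at an unadjusted p under 0.05, against 26.2% of all genes. Only Txnip did not overlap, against 27.2% of all, and the median was 0.08 beside -0.01. For the difference of the AOS effect, 0.143% of all genes were called above 0 and 0.362% below, with 1 of the 10 genes at an unadjusted p under 0.05, against 14.7% of all genes. In each comparison, some of the 10 genes lay above 0 and some below. The shares of all genes called in each direction depended on the scaling. With library medians set equal, the part of the calls that was higher went from 77.5% to 51.1% in HFD against Con, from 39.7% to 56.4% in A10-FMT against HFD, from 27.1% to 44.4% in A10-FMT against Con-FMT, from 71.4% to 50% in AOS against Con and from 28.3% to 47.7% for the difference of the AOS effect.

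HFD replicate 1 had the lowest value of its group for all 10 genes, where it was the lowest for 49.3% of all genes tested. HFD+AOS replicate 2 was the lowest of its group for 8 of the 10 (57.1% of all genes) and Con replicate 1 for 7 (62.8%). Most differences against HFD therefore shifted together when HFD replicate 1 was left out. Without it, 2 of the 10 genes (Gclc and Srxn1) passed an adjusted p under 0.05 in A10-FMT against HFD, 2 (Srxn1 and Txnrd1) in HFD+AOS against HFD, and Gclc in the difference of the AOS effect, the former 4 all lower in the group with AOS or its microbiota. In these fits, 3.54% of all genes were called higher and 6.70% lower in A10-FMT against HFD, 4.97% and 7.23% in HFD+AOS against HFD, and 0.447% and 1.32% above and below 0 in the difference, so that more genes of all kinds passed. When the median of each library was set equal, Txn1 passed in HFD against Con, Gclm and Srxn1 in A10-FMT against HFD, and Txnip in HFD+AOS against HFD. With this scaling the shares of all genes called higher and lower were 0.228% and 0.219%, 5.74% and 4.44%, and 6.27% and 5.98% in these 3 comparisons. Nothing about the 10 genes is read from these counts.

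**Figure D4:**
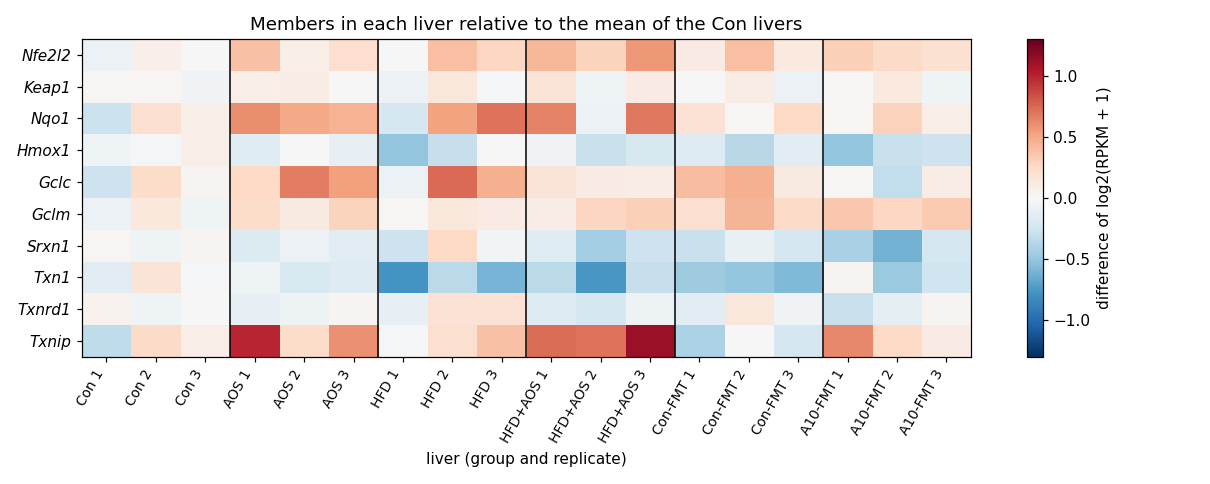
Each of the 10 genes in each of the 18 livers, as the difference of log2(RPKM + 1) from the mean of the Con livers (red higher, blue lower). The first HFD liver was the lowest of its group for every gene, and Txnip was high in all HFD+AOS livers.

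Of 72 companion genes of the same pathways, in 7 lists, 68 passed the filter and were tested. They were compared because the control of NRF2, its other targets and the enzymes that use glutathione and thioredoxin are not shown by the 10 genes. The lists, like the 10 genes, were chosen with earlier results of these data known, so that calls in them are a description. Of the 68, 3 passed in HFD+AOS against HFD, beside 4.17% of all genes called higher and 4.58% lower. In A10-FMT against HFD 2 passed, beside 2.62% and 3.98%. In HFD against Con 1 passed, beside 0.295% and 0.0857%, and in A10-FMT against Con-FMT 1 did, beside 0.457% and 1.23%. In the list of NRF2 control (10 of 10 genes tested), Bach1, the repressor of antioxidant response elements, was at 3.82, 4.52 and 4.07 RPKM in HFD, at 6.05, 5.79 and 6.04 in HFD+AOS, at 7.03, 4.94 and 5.32 in A10-FMT and at 4.08, 4.53 and 4.45 in Con-FMT. Every HFD+AOS and A10-FMT liver was above every HFD and Con-FMT liver. Bach1 rose in HFD+AOS against HFD by 0.44 (SE 0.09, limma adjusted p = 0.0107), and this passed in all 12 alternatives (adjusted p 0.00325 to 0.0448). It also rose in A10-FMT against HFD by 0.39 (SE 0.09, adjusted p = 0.0222), with 3 of 12 alternatives not passing (adjusted p 0.00514 to 0.204), among them those that left out HFD replicate 3 or A10-FMT replicate 1. In A10-FMT against Con-FMT the difference was 0.33 (adjusted p = 0.0961), and in AOS against Con it was 0.31 (adjusted p = 0.154), with no overlap of the livers in either. Con-FMT against HFD was at 0.06 (adjusted p = 0.933).

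Maff, a small MAF protein that pairs with NRF2 or BACH1, was low, at 0.9, 1.37 and 2.02 RPKM in HFD and at 3.28, 3.89 and 3.1 in HFD+AOS. It rose in HFD+AOS against HFD by 0.89 (SE 0.20, limma adjusted p = 0.0141), but not past the threshold without HFD+AOS replicate 2 (adjusted p 0.0107 to 0.0512 over 12 alternatives). In A10-FMT it was at 4.53, 1.81 and 2.18, and in Con-FMT at 0.89, 1.21 and 0.9, a rise of 0.88 (SE 0.20, adjusted p = 0.0342) that did not pass in 8 of 12 alternatives (0.0194 to 0.25), among them those without A10-FMT replicate 1 or without any of the Con-FMT livers. Against HFD, A10-FMT was at 0.62 (adjusted p = 0.069). As for Bach1, comparisons against HFD share the HFD livers.

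Prdx6, a peroxiredoxin that reduces phospholipid hydroperoxides, was at 177.32, 163.9 and 154.07 RPKM in HFD, at 220.97, 207.83 and 207.47 in HFD+AOS and at 203.64, 240.51 and 201.22 in A10-FMT. It rose by 0.36 in HFD+AOS (SE 0.08, limma adjusted p = 0.0153) and by 0.38 in A10-FMT (SE 0.08, adjusted p = 0.0133), each against HFD. Each failed in 3 of 12 alternatives, over which adjusted p went from 0.0114 to 0.0829 and from 0.00847 to 0.171. Without HFD replicate 3 neither passed, nor did the first without HFD+AOS replicate 1 or the second without A10-FMT replicate 2. Con-FMT livers had 181.96, 172.97 and 180.77 RPKM, at 0.11 from HFD (adjusted p = 0.842) and below every A10-FMT liver (A10-FMT against Con-FMT 0.26, adjusted p = 0.128). Prdx6 was the only call among the 13 genes of the thioredoxin and peroxiredoxin list, whose median was 0.12 in HFD+AOS and 0.11 in A10-FMT against HFD, beside -0.01 and -0.03 for all genes.

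**Figure D5:**
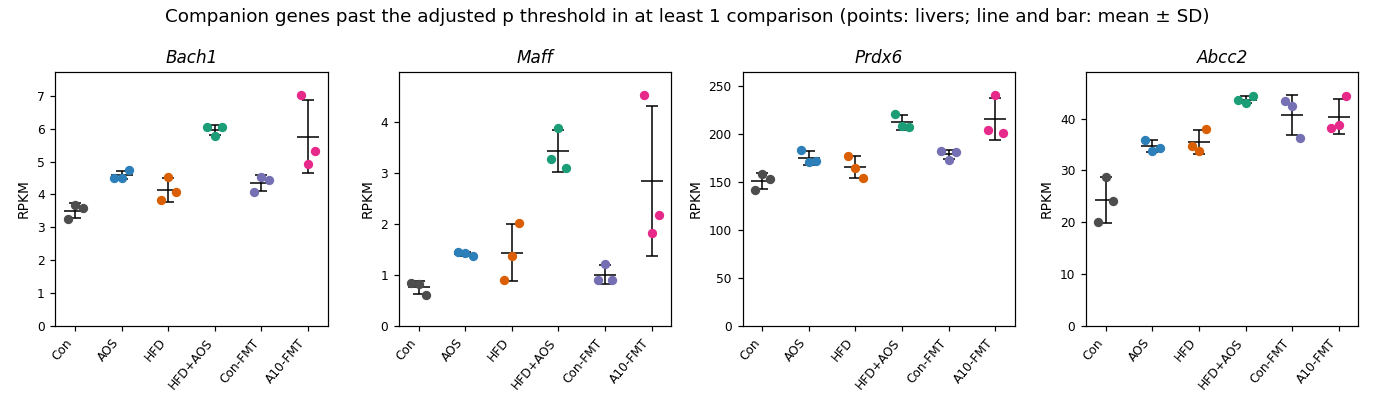
RPKM of the 4 companion genes that passed an adjusted p under 0.05 in at least 1 comparison, by liver (points) with mean (line) and SD (bar). Bach1 and Prdx6 were higher in every HFD+AOS and A10-FMT liver than in every HFD liver, and Abcc2 was lower in the Con livers than in all others.

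Detoxification and export targets (16 of 18 genes tested) include many known NRF2 targets. Abcc2, which exports glutathione conjugates into bile, was at 20.01, 28.76 and 24.04 RPKM in Con and at 34.63, 33.71 and 38.01 in HFD. It rose in HFD by 0.54 (SE 0.11, limma adjusted p = 0.0414), which did not pass in 9 of 12 alternatives (0.00383 to 0.261), among them those without any of the HFD livers, without Con replicate 1 or 3, and without the third Con and AOS livers. In AOS against Con it was at 0.51 (adjusted p = 0.071). The median of the list was 0.29 in AOS against Con, beside 0.07 for all genes. Above 0 were 12 of its 16 genes, against 67.8% of all genes. Relative to HFD, the medians were -0.28 in HFD+AOS, -0.22 in A10-FMT and -0.31 in Con-FMT. Those of all genes were -0.01, -0.03 and -0.00. In these 3 comparisons, which share the HFD livers, 13, 13 and 14 of 16 genes lay below 0. Of all genes, 48.7%, 43.2% and 49.5% lay above 0 in the same order. For HFD against Con the median of the list was -0.12, and for A10-FMT against Con-FMT 0.15. Among the 9 glutathione S-transferases of the list, HFD replicate 1 was the lowest of its group for 7, all but Gstm2 and Gstp1. Gstp1, with the lowest difference of the list in HFD+AOS against HFD (-0.69), was at 6417, 6499 and 4868 RPKM in the HFD livers. Gstm1 was at 712, 1870 and 1820 RPKM in the HFD livers, Gstm4 at 20.07, 52.68 and 42.98, and Gsta1 at 0.59, 3.89 and 3.7. Gstm1, Gstm2 and Gstm4 are named after their values were seen. Without HFD replicate 1, 10 of the 68 companion genes passed in A10-FMT against HFD (7 lower), where 3.54% of all genes were called higher and 6.7% lower. In HFD+AOS against HFD 9 passed (4 lower), beside 4.97% and 7.23%. Gsta1, Gstm1 and Gstm4 were among the lower genes of both, against 0 lower companion genes with all livers. Nothing about the list is read from these counts.

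In Con-FMT against HFD, 0 companion genes passed (limma, 6 at an unadjusted p under 0.05). Nearest were Gstm3 at -1.40 (22.9 against 65.9 RPKM, adjusted p = 0.507), Gsta1 at -1.08 (adjusted p = 0.623) and G6pdx, a source of NADPH, at -0.59 (1.15 against 2.47 RPKM, adjusted p = 0.68). In AOS against Con, 0 passed as well, with 18 of 68 at an unadjusted p under 0.05, against 15.5% of all genes, and 54 of 68 above 0, against 67.8% of all genes (49.6% with library medians set equal). Nearest beside Abcc2 were Fech, the last enzyme of haem synthesis, at 0.37 (51.0 against 39.3 RPKM, adjusted p = 0.071), and Gstp1 at -0.92 (3991 against 7549 RPKM, adjusted p = 0.144). All AOS livers lay above all Con livers for Fech and below them for Gstp1. For the difference of the AOS effect between diets, 0 passed (4 at an unadjusted p under 0.05). Nearest were Aox1 at -0.76, Fech at -0.30 (adjusted p = 0.229) and G6pdx at -0.81 (adjusted p = 0.256). The glutathione S-transferase and thioredoxin genes have near-identical copies, and how the deposited values treated reads that match several of them is not settled by the sources, which name different aligners.

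The other lists had no call in any comparison. Glutathione and NADPH supply (12 genes) had medians from -0.09 to 0.09 over the 6 comparisons, haem and iron handling (7 genes) from -0.06 to 0.11, and the superoxide and peroxide enzymes (4 genes) from 0.05 to 0.24. The relatives of Txnip and the carbohydrate response list (6 genes) had medians from -0.07 to 0.31. Within the latter, Arrdc3 was at 75.04, 15.48 and 15.35 RPKM in HFD and at 93.4, 87.5 and 55.2 in HFD+AOS (difference 1.51, SE 0.48, adjusted p = 0.0631), and Arrdc4, the closest relative of Txnip that is also glucose-responsive, was at 0.13 (adjusted p = 0.755). Both are named after their values were seen.

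Among the 45 pairs of the 10 genes, r of log2(RPKM + 1) over the 18 livers had a median of 0.185, with 33 above 0 and 9 above 0.5. The livers share groups and libraries, and the shares over pairs of all genes were not counted, so that these values are a description. The highest pairs were Nfe2l2 with Txnip (0.737) and Srxn1 with Txnrd1 (0.733), and the lowest were Hmox1 with Gclm (-0.498) and Gclm with Srxn1 (-0.479). Txn1, the most abundant of the 10, was most like Rpl28 and Fuom (0.845 each), and Txnip was most like Rgs16 (0.841) and Lpcat3 (0.804). The genes most like Nfe2l2 were Sfswap (0.891) and Rbms1 (0.881), and those most like Keap1 reached only 0.75 (Trappc1) and 0.74 (Grn). The patterns of Nqo1 (Man2b2, 0.871; Cbx3, 0.87), Gclc (Abi1, 0.863; Dsp, 0.853) and Gclm (Gng12, 0.875; Tob2, 0.869) were each nearest to other genes. Srxn1 was nearest to Tubb5 (0.913) and Psmd4 (0.9), Txnrd1 to Ctr9 (0.906) and Abce1 (0.903), and Hmox1 to Itgb1bp1 (0.831) beside Clec4f. None of these genes is a member or a companion gene.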

How the data were processed

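Liver RNA was sequenced from 18 mice, 3 in each of 6 groups taken from the labels. The authors deposited RPKM values, rounded to 2 decimals, in a single table whose header does not name the unit. The study's methods name SOAPaligner for mapping to reference genes, while the submitters' processing notes name Bowtie 0.12.2 and the build mm10. The annotation and the strand setting are not given in the sources used here. Values were taken as log2(RPKM + 1), which understates the change of low genes. A gene was tested if 3 or more livers reached 1 RPKM, which left 10507 of 17109 genes above 0 in any liver. The limma package (3.58.1, R 4.3.3) fitted group means to all 18 livers and moderated the spread with a trend. Tests were two-sided, with the Benjamini-Hochberg adjustment made over the genes of each comparison. The fit was checked on data of known answer. Nothing in the labels says that replicates share more than a number. The study's DEGseq test needs read numbers and was not run.

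The 10 genes and the 7 companion lists were chosen with earlier results of these data known. Companion genes are named where they passed an adjusted p under 0.05 (up to 4 a list), or else as the 3 of smallest unadjusted p, and for each of the 10 genes the 2 most alike genes. Alternatives were library medians set equal, a pseudocount of 0.1, no filter, the compared groups alone, the replicate number as a block, a fit lacking the third liver of Con and of AOS, and each liver left out in turn. Promoters were taken from RefSeq (GRCm38.p6) and gene positions from GENCODE M21, and tables and figures were made with Python 3.11.15, numpy 2.4.6, pandas 2.3.3 and matplotlib 3.10.9.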

Additional observations from a re-analysis of the deposited data

Results flagged for a closer look

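In 2 of the 68 companion genes tested, all livers with AOS lay above all those without it on the regular diet, and all lay below on the high-fat diet. Groups did not overlap, in either direction, for 24.7% of all genes in AOS against Con and 27.2% in HFD+AOS against HFD. The share of all genes with both in opposite directions was not counted, so nothing about the companion genes is read from this count. Aox1, an aldehyde oxidase, was at 17.71, 21.47 and 20.57 RPKM in Con and at 25.53, 30.42 and 28.46 in AOS, but at 20.04, 22.42 and 21.75 in HFD and at 18.47, 18.28 and 15.69 in HFD+AOS. The AOS effect was 0.48 on the regular diet and -0.28 on the high-fat diet, and the difference between them was -0.76 (SE 0.20, limma adjusted p = 0.106, and 0.0205 to 0.386 over 18 alternatives, of which 17 did not pass). Sqstm1, which encodes the p62 protein that binds KEAP1, was at 167, 178 and 183 RPKM in Con and at 189, 200 and 184 in AOS, against 172.82, 221.3 and 170.17 in HFD and 169.99, 150.7 and 162.28 in HFD+AOS. Its AOS effects were 0.12 and -0.21, and the difference between them was -0.33 (SE 0.16, limma adjusted p = 0.343). The nearest livers of the groups were close, at 184.06 (AOS) and 182.79 RPKM (Con), and at 169.99 (HFD+AOS) and 170.17 (HFD). Sqstm1 is named after its values were seen.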

How the results depend on the processing

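No call was reversed in any alternative. Of 70 differences of members (10 genes in 6 comparisons and the difference of the AOS effect), 23 had the other sign in at least 1 alternative, each with a 95% interval that held 0. Companion genes passing in HFD against Con (1) were 0 with no filter, with the compared groups alone, with the replicate block and without the third Con and AOS livers, and 0 to 2 with a liver left out in turn. In A10-FMT against HFD (2) they were 4 with medians set equal, 0 with the compared groups alone, and 0 to 10 with a liver left out (0 without HFD replicate 3, 10 without HFD replicate 1, 7 without A10-FMT replicate 3). In Con-FMT against HFD (0) leaving out a liver gave 0 to 1. In A10-FMT against Con-FMT (1) they were 2 with medians equal, 0 with no filter, the compared groups alone, the replicate block or without the third Con and AOS livers, and 0 to 1 with a liver left out. In AOS against Con (0) they were 1 with the compared groups alone and 0 to 2 with a liver left out (2 without Con replicate 2). In HFD+AOS against HFD (3) they were 5 with medians equal and 2 to 9 with a liver left out (9 without HFD replicate 1), and for the difference of the AOS effect (0) 1 with the compared groups alone and 0 to 4 (4 without HFD replicate 1). These counts are of 68 genes, and nothing about the lists is read from them. With medians equal, 5.74% of all genes were called higher and 4.44% lower in A10-FMT against HFD. The shares were 1.03% and 1.28% in A10-FMT against Con-FMT, and 6.27% and 5.98% in HFD+AOS against HFD. Shares of all genes without HFD replicate 1 are given above. With medians equal, 1 member passed in HFD against Con, 2 passed in A10-FMT against HFD and 1 in HFD+AOS against HFD, where 0 had passed, as more of all genes passed too. With a liver left out, 0 to 2 passed in A10-FMT against HFD and in HFD+AOS against HFD, and 0 to 1 for the difference of the AOS effect. Members without overlap were 1 to 5 in HFD against Con, 1 to 5 in A10-FMT against HFD, 1 to 6 in Con-FMT against HFD, 2 to 5 in A10-FMT against Con-FMT, 4 to 7 in AOS against Con and 2 to 4 in HFD+AOS against HFD with a liver left out, which also leaves fewer values to overlap. For all genes the shares without overlap were then 22.3% to 34.2%, 28.8% to 41.9%, 17.3% to 27.3%, 24.1% to 39.6%, 30.2% to 43.2% and 32.8% to 43.1% in the same order. The cause of the other moves was not tested.

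The replicate numbers paired no livers by their values, since correlations of deviations went from -0.177 to 0.225 and 0 comparisons had every pair over 0.1. The replicate block took away the calls of Abcc2 and Maff named above and no other. Setting library medians equal shifted the median of all genes by under 0.1 in each comparison. Depth limits the low genes, such as Nqo1 among the members and Gsta1, Maff and G6pdx among the companions, and intervals cover the spread between livers, which in Con and AOS may rest on 2 independent values.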
